A study of Mus musculus with 12 samples.

Results

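The insulin-like growth factor (IGF) axis was followed in mouse endothelial cells as they formed capillary-like networks on Matrigel. Its members were taken as every probe set whose platform gene symbol was Igf1, Igf2, Igf1r, Igf2r, Igfbp2, Igfbp3, Igfbp4, Igfbp5, Igfbp6 or Igfbp7. These are 10 of the 12393 genes named by the array, measured by 23 probe sets. Probe sets were tested if 3 or more arrays gave them a signal of 183 or above, which is the median over the whole data set. By that rule 9 of the 10 genes, with 18 probe sets, entered the tests, and Igfbp3 was measured but not tested.

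The cells were MB114, a murine microvascular endothelial line, split 1:3 24 h before they were placed on Matrigel, a basement membrane gel extracted from a mouse tumour. RNA was taken after 1, 5, 15 and 25 h on the gel, with 3 arrays per time numbered as biological replicates 1, 2 and 3, and each of the 12 arrays held total RNA of the whole culture. All groups were the same line on the same gel, the 1 h cultures serve as the earliest point, and cells kept off the gel were not analysed here. The number of arrays, 3 per time, limits the precision of every value below.

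IGF1 and IGF2 are secreted hormones that signal through the type 1 IGF receptor, a tyrosine kinase close to the insulin receptor, and from there through IRS adaptors, PI3 kinase and AKT. The IGF2 receptor, which also carries mannose 6-phosphate-tagged enzymes to lysosomes, takes up IGF2 and clears it without such signalling. IGF binding proteins hold the ligands outside the cell, extend their life or keep them from the receptor, and are themselves cut by proteases. In vessels, IGF signalling is known to favour endothelial survival, migration and sprouting.

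Igfbp4, Igfbp6 and Igfbp7 rose between 1 and 25 h, and Igfbp5 had the largest fold of the 9 tested genes, with a call that depended on whether the replicate number was in the fit. The receptor Igf1r had its lowest signals at 5 h. The ligands were measured at low signals, and Igf2 and Igfbp2 separated by replicate number rather than by time. In a fit with 1 mean per time (limma, moderated F test, Benjamini-Hochberg over 7379 genes), 4 of the 9 tested members changed over the 4 times at an adjusted p under 0.05, against 34.9% of all tested genes. These were Igf1r, Igfbp4, Igfbp6 and Igfbp7. When the fit also held the replicate number (the replicate block), 6 of 9 were called, against 55.1% of all genes, and the additions were Igf1 (adjusted p = 0.122, and 0.0156 with the block) and Igfbp5 (0.101, and 9.93e-06 with the block). These shares lie near the background over all genes, and members that passed the filter only through their higher arrays are favoured in such counts. Igf1 passed on 4 arrays, Igf2 on 5 and Igfbp5 on 9.

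**Figure D1:**
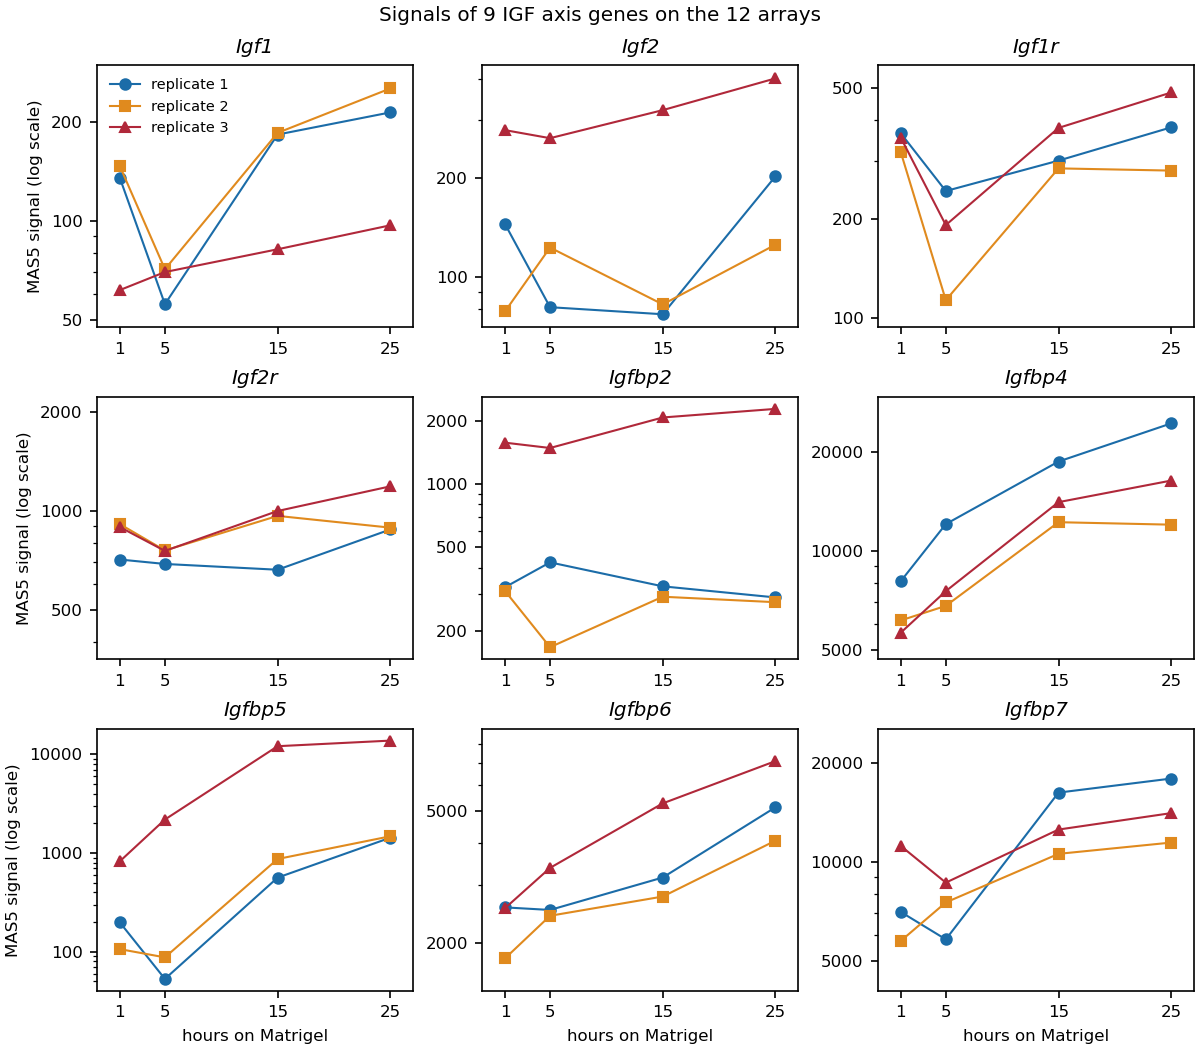
Each panel plots the MAS5 signal of 1 gene (log scale) against hours on Matrigel, with a line for each replicate number and 1 point per array. Igfbp4 and Igfbp6 are higher at 25 h than at 1 h in all 3 replicates, Igf1r has its lowest point at 5 h in all 3, and Igf2, Igfbp2 and Igfbp5 lie highest in replicate 3 at all 4 times.

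Of the ligands, Igf1 encodes the growth hormone-responsive IGF made by liver and by many mesenchymal cells. Probe set 1452014_a_at read 135, 147 and 61.8 at 1 h (replicates 1, 2 and 3), 56.0, 71.5 and 70.1 at 5 h, 183, 186 and 82.2 at 15 h, and 214, 253 and 97.2 at 25 h. Replicates 1 and 2 were lowest at 5 h and above their 1 h signals later, while replicate 3 stayed between 61.8 and 97.2 throughout. All 3 signals at 15 h lay above all 3 at 5 h, a 2.15-fold difference (log2 1.11 ± 0.48 SE, limma adjusted p = 0.133), and with the replicate block the adjusted p was 0.0254. The probe set reached the filter on 4 arrays, all at 15 or 25 h, so the filter itself favoured a difference from 5 h and the test supports nothing here. A second Igf1 probe set, 1437401_at, read 30.2, 14.5 and 49.8 at 5 h and 241, 298 and 65.8 at 15 h. It too reached the filter through arrays of 15 or 25 h alone, so its test is not read. The third, 1419519_at, ranged from 80.3 to 201 over the 12 arrays, did not pass the filter, and was 1.40-fold higher at 15 h than at 5 h (adjusted p = 0.482 when no filter was set).

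Igf2 encodes the fetal IGF, expressed from the paternal allele. Probe set 1448152_at read 145, 78.6 and 279 at 1 h, 81.0, 123 and 264 at 5 h, 77.1, 82.6 and 321 at 15 h, and 202, 125 and 401 at 25 h. Replicate 3 was the highest array at all 4 times, and its lowest signal, 264, was above the highest of replicates 1 and 2, 202. The times overlapped in every comparison, and 25 h was 1.47-fold above 1 h with an adjusted p of 0.532 (limma). The other Igf2 probe set, 1415931_at, lay between 6.60 and 39.5 and was not tested.

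Of the receptors, Igf1r encodes the signalling receptor. Its tested probe set read 365, 320 and 354 at 1 h, 244, 114 and 192 at 5 h, 301, 285 and 379 at 15 h, and 380, 281 and 485 at 25 h. Every 5 h array lay below every 1 h array and below every 15 h array. Signals at 5 h were 1.98-fold below 1 h (log2 difference -0.99 ± 0.28 SE, limma adjusted p = 0.113, and 0.0124 with the replicate block), in 3 of 3 replicates. From 5 to 15 h the difference was 1.83-fold upward (adjusted p = 0.0564, and 0.00711 with the block). The F test over the 4 times called the gene (adjusted p = 0.0257), and that call was lost without 5 h replicate 2 (0.123), 5 h replicate 3 (0.0543) or 25 h replicate 1 (0.0504), and under quantile normalization (0.0738). The dimmer probe set 1452108_at ranged from 22.1 to 64.6 and was not tested.

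Igf2r, the clearance receptor, varied little. Probe set 1424112_at read 711, 911 and 892 at 1 h, 689, 758 and 755 at 5 h, 662, 965 and 998 at 15 h, and 877, 889 and 1186 at 25 h. All pairs of times that were compared overlapped, and 25 h was 1.17-fold above 1 h (log2 0.23 ± 0.20 SE, limma adjusted p = 0.392). The second probe set, 1424111_at, gave 1.22-fold for the same comparison.

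Of the binding proteins, Igfbp4 encodes an inhibitor of IGF action that is released from its ligand when PAPP-A cuts it. Probe set 1423756_s_at, which stands for the gene in the tests, read 8078, 6143 and 5638 at 1 h, 12046, 6801 and 7539 at 5 h, 18653, 12207 and 14044 at 15 h, and 24357, 11998 and 16331 at 25 h. The 15 h and the 25 h arrays all lay above the 1 h arrays. Replicate 1 was the highest array at all 4 times, and from 15 to 25 h replicate 2 stood at about the same signal. Igfbp4 rose 2.25-fold from 1 to 15 h (log2 1.17 ± 0.28 SE, limma adjusted p = 0.0102) and was 2.57-fold above 1 h at 25 h (log2 1.36 ± 0.28 SE, adjusted p = 0.0024), in 3 of 3 replicates at each time. From 5 to 15 h it was 1.73-fold higher (adjusted p = 0.0769, and 0.000396 with the replicate block). The 15 h call was lost when all arrays numbered 2 (2.40-fold, adjusted p = 0.0551) or all arrays numbered 3 (2.14-fold, 0.0929) were left out. Since whole cultures were measured, more RNA per cell and more cells of a kind that makes it cannot be told apart.

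All 6 Igfbp4 probe sets passed the filter, and they differed in the size of the change. From 1 to 25 h their folds ran from 1.73 (1437405_a_at, mean 7416 at 1 h) to 8.92 (1421991_a_at, mean 790 at 1 h), all upward. Folds were mostly larger where the 1 h signal was lower, with 5.62 from 2546 (1421992_a_at) and 2.57 from 6620 (1423756_s_at). The order was not strict, since 1437406_x_at gave 2.45 from 5982. The size of the rise given for the gene thus depends on the probe set that stands for it. Whether the brighter probe sets understate it was not tested. Tested singly, 5 of the 6 were called, against 32.3% of the 11652 probe sets tested in this comparison, and the sixth, 1437405_a_at, had an adjusted p of 0.0537 (limma). Probe set 1421991_a_at read 1065, 656 and 651 at 1 h, 1524, 1073 and 1373 at 5 h, 7806, 3794 and 5632 at 15 h, and 8571, 5148 and 7305 at 25 h. On this probe set the 5 h arrays too lay above the 1 h arrays, by 1.70-fold (adjusted p = 0.286, and 0.0104 with the replicate block). The probe sets of this gene share its transcripts and are not replicates of it.

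**Figure D2:**
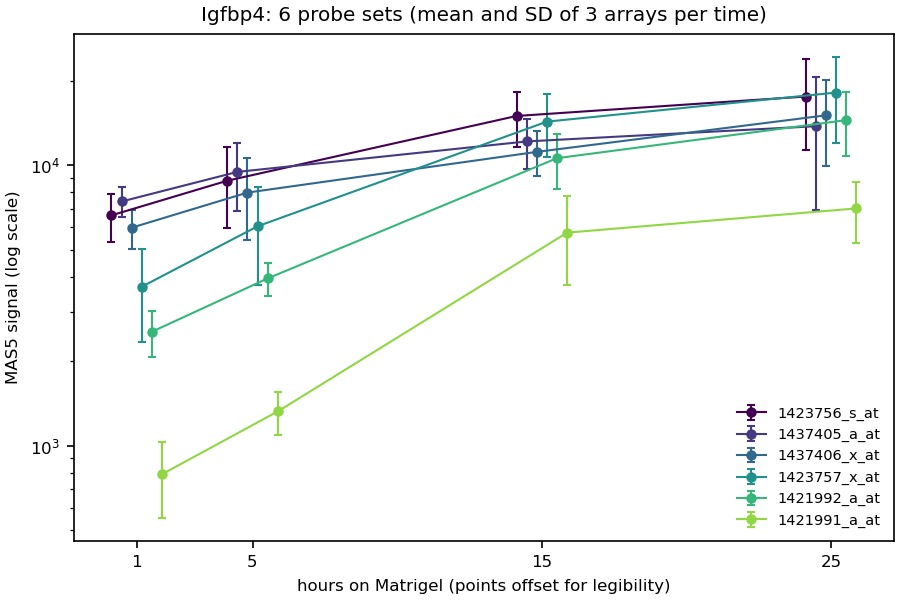
The mean MAS5 signal of each of the 6 Igfbp4 probe sets (log scale) is plotted against hours on Matrigel, with bars of 1 SD over 3 arrays. All 6 lines end higher at 25 h than at 1 h, and that of 1421991_a_at climbs most, from 790 to 7008.

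Igfbp6 encodes a binding protein that prefers IGF2. Its probe set read 2558, 1790.2 and 2543 at 1 h, 2512, 2412 and 3371 at 5 h, 3152, 2759 and 5292 at 15 h, and 5149, 4078 and 7112 at 25 h. Each replicate was highest at 25 h, and the 25 h arrays did not overlap those of 1 h. Igfbp6 rose 2.34-fold from 1 to 25 h (log2 1.23 ± 0.27 SE, limma adjusted p = 0.00366), and the call held in all 27 alternatives run for it. At 15 h it was 1.58-fold above 1 h (adjusted p = 0.0957, and 0.0025 with the replicate block), from 5 to 15 h 1.31-fold higher (0.354, and 0.0493 with the block), and from 15 to 25 h 1.48-fold higher (0.593, and 0.039 with the block). The F test over the 4 times (adjusted p = 0.0143) lost its call without 25 h replicate 3 (0.0515).

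Igfbp7, also called angiomodulin, binds IGFs weakly and is laid down in vessel basement membranes. Probe set 1423584_at read 7039.8, 5746 and 11168 at 1 h, 5810.2, 7522 and 8639 at 5 h, 16209.6 (replicate 1), 10565 and 12520.3 at 15 h, and 17883, 11432 and 14045 at 25 h. The 25 h arrays lay above all 1 h arrays, and the 15 h arrays above all 5 h arrays. It rose 1.85-fold from 1 to 25 h (log2 0.89 ± 0.26 SE, limma adjusted p = 0.0181), with folds of 2.54, 1.99 and 1.26 in replicates 1, 2 and 3. The call was lost without 1 h replicate 1 (1.77-fold, adjusted p = 0.0592), 1 h replicate 2 (1.60-fold, 0.0797) or 25 h replicate 1 (1.65-fold, 0.0752), and without all arrays numbered 1 (1.58-fold, 0.141) or numbered 2 (1.79-fold, 0.0915). From 5 to 15 h the rise was 1.78-fold at an adjusted p of 0.0497, a call that 19 of 27 alternatives lost, among them every single-array omission except those of 1 h replicates 2 and 3. Omitting 5 h replicate 1 gave the highest such value, 0.149. At 15 h Igfbp7 was 1.68-fold above 1 h (adjusted p = 0.0545, and 0.00992 with the replicate block). The second tested probe set, 1423585_at, rose 2.04-fold from 1 to 25 h when tested singly (adjusted p = 0.0265), and the third, 1437804_at, lay between 26.7 and 57.0 and was not tested.

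Igfbp5 encodes a binding protein that attaches to matrix and is made by many fibroblasts and muscle cells. Probe set 1452114_s_at read 199, 106 and 826 at 1 h, 53.1, 87.8 and 2190.3 at 5 h, 565, 872 and 12129.8 at 15 h, and 1433, 1482 and 13820 at 25 h. Every replicate was higher at 25 h than at 1 h, by 7.22-fold, 13.9-fold and 16.7-fold, and the 25 h arrays lay above all 1 h arrays. Replicate 3 was above the others at each time, by 5.69-fold at 1 h, 32.1-fold at 5 h, 17.3-fold at 15 h and 9.48-fold at 25 h over the geometric mean of replicates 1 and 2. The 25 h signals were 11.9-fold above 1 h (log2 3.57 ± 1.45 SE, limma adjusted p = 0.0708), a difference that did not pass without the replicate number in the fit and passed with it (adjusted p = 1.6e-05). With all arrays numbered 3 left out, the same comparison passed without a block, at 10.03-fold (adjusted p = 0.000319), and it also passed without 5 h replicate 3 (0.0304) and without 15 h replicate 3 (0.0436). The size of the difference rested on single arrays: it was 5.62-fold without 25 h replicate 3 (adjusted p = 0.234), 7.62-fold without 1 h replicate 2 (0.194) and 21.2-fold without 1 h replicate 3 (0.0507). Signals at 15 h were 6.99-fold above 1 h (adjusted p = 0.181, and 0.000253 with the block) and 8.36-fold above 5 h (0.169, and 0.000229 with the block). Without 15 h replicate 3 these folds were 2.70 (adjusted p = 0.536) and 3.23 (0.492). Leaving out other single arrays of the times compared gave 4.48 to 12.5 against 1 h, with the lowest value without 1 h replicate 2 and the highest without 15 h replicate 1. Against 5 h it gave 4.14 without 5 h replicate 1 and 26.6 without 5 h replicate 3 (adjusted p = 0.0423). The second probe set, 1422313_a_at, read 123, 227 and 409 at 1 h and 300.3, 1038 and 7885 at 25 h, a 5.99-fold difference (adjusted p = 0.186 tested singly, and 0.00229 with the block).

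Igfbp2 encodes a binding protein abundant in fetal tissue and in many tumour lines. Its probe set read 324, 311 and 1572 at 1 h, 425, 168 and 1483 at 5 h, 327, 292 and 2069.6 at 15 h, and 289.6, 275 and 2273 at 25 h. The 4 arrays of replicate 3 lay between 1483 and 2273, and the other 8 between 168 and 425, with no overlap. Between 1 and 25 h the difference was 1.05-fold (adjusted p = 0.968, and 0.834 with the block). Igfbp3, the main IGF carrier of blood plasma, lay between 0.70 and 8.50 on the 12 arrays, far under the filter.

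None of the 9 tested members was called from 1 to 5 h, against 1.65% of all tested genes (limma). At an unadjusted p under 0.05 there was 1 (Igf1r), and with the replicate block 1 was called (Igf1r again), against 7.77%. From 1 to 15 h 1 member was called (Igfbp4), against 23.8%, and 4 with the block (Igfbp4, Igfbp5, Igfbp6 and Igfbp7), against 40.2%. From 1 to 25 h 3 were called, all higher, against 36.7%, and 4 with the block, against 51.2%. From 5 to 15 h 1 was called (Igfbp7), against 14.5%, and 6 with the block (Igf1, Igf1r, Igfbp4, Igfbp5, Igfbp6 and Igfbp7), against 32.7%. Igf1 reached the filter through arrays of 15 or 25 h alone, so its call in that count is not read. From 15 to 25 h none was called, against 0.772%, with 0 at an unadjusted p under 0.05 and 1 with the block (Igfbp6), against 4.26%. These comparisons share arrays, so their counts are not independent of each other.

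**Figure D3:**
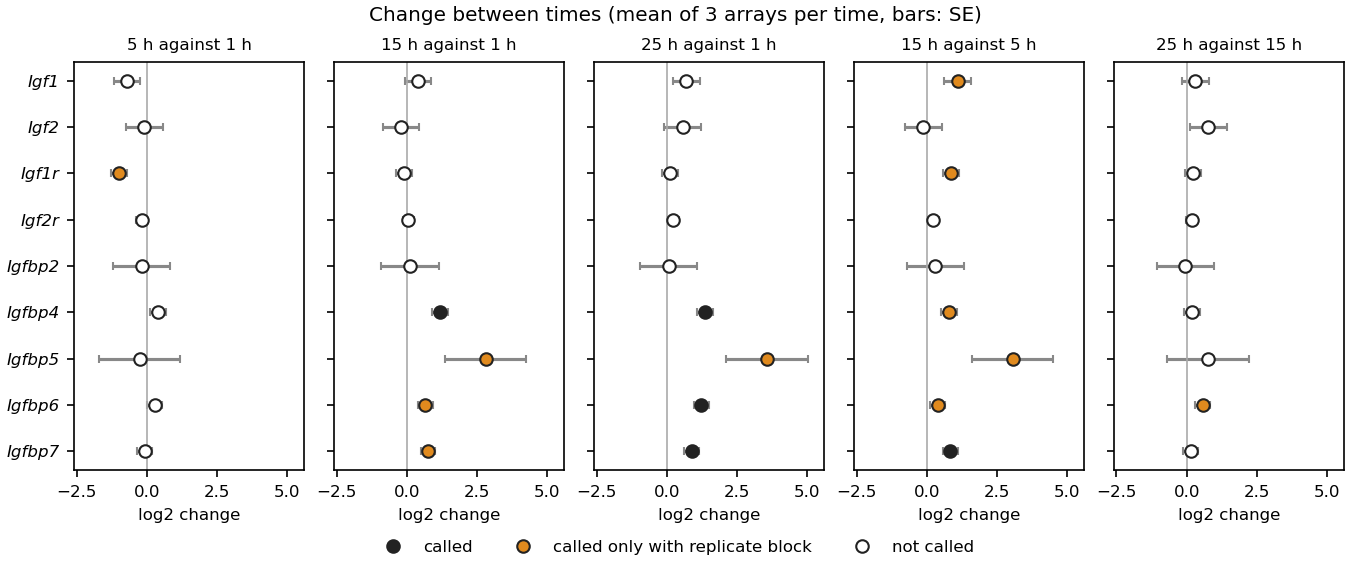
The log2 change of each tested member is plotted for 5 comparisons, later minus earlier, with bars of 1 SE (3 arrays per time). Igfbp4, Igfbp6 and Igfbp7 are filled black at 25 h against 1 h, and Igfbp5 lies farthest right there, at 3.57 with an SE of 1.45.

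The replicate number was then tested itself, in the fit that also holds time, a test added after the values had been seen. It was called for 5 of the 9 tested members, against 28.3% of all tested genes. These were Igfbp2 (limma adjusted p = 3.14e-06, rank 10 of 7379 genes by p), Igfbp5 (2.01e-05, rank 31), Igfbp4 (0.000705), Igf2 (0.00123) and Igfbp6 (0.00424). Igf2 reached the filter on 5 arrays, among them all those numbered 3, so the filter favoured its call and its difference. Averaged over the 4 times, the arrays numbered 3 were 13.2-fold above the others for Igfbp5, 6.21-fold for Igfbp2, 2.89-fold for Igf2 and 1.46-fold for Igfbp6. For Igf1 they stood at 0.548 of the others, with an adjusted p of 0.0512. For Igfbp4 the arrays numbered 1 were the high ones, 1.64-fold above those numbered 2. These arrays also differed in their spike-in control probe sets, with a geometric mean signal of 1124 to 1412, against 465 to 668 on the others. Their highest signals were 28932 to 37764, against 17908 to 23638 on the others. The part of these array differences in the Igfbp4 values was not tested. The sources used here do not say what the cultures of 1 number have in common.

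**Figure D4:**
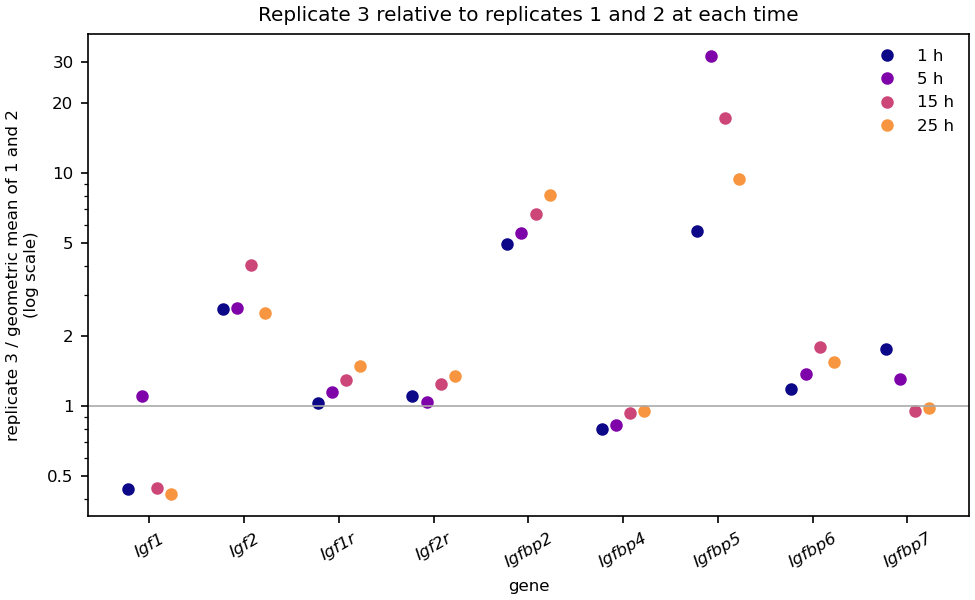
The signal of the replicate 3 array divided by the geometric mean of replicates 1 and 2 (log scale) is plotted for each gene, with 1 point per time. Igfbp5 lies between 5.69 and 32.1 and Igfbp2 between 4.95 and 8.06, while Igf1 is below 1 at 3 of the 4 times.

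Markers of several cell types, the labelled endothelial type included, differed by replicate number as well, in both directions. Among tested genes of lists chosen as markers, the number was called for 7 of 12 fibroblast and mesenchymal genes, 4 of 5 pericyte and smooth muscle genes, 2 of 3 endothelial genes, 1 of 2 leukocyte genes and 5 of 8 genes of parietal endoderm, the tissue that the gel's source tumour resembles. Over all tested genes it was called for 28.3%. On the arrays numbered 1, 2 and 3 the geometric mean signal of the proteoglycan Dcn was 1676, 1784 and 5267, that of the smooth muscle actin Acta2 2501, 2009.6 and 5436, and that of the endothelial cadherin Cdh5 238, 207 and 68.6. The Cdh5 mean on the arrays numbered 3 lay under the filter, so the filter favoured its difference. Other called genes of the same lists were lowest on the arrays numbered 3, among them the collagen Col3a1 (6769, 5057 and 3245), Thy1 (1914, 1337 and 1074) and the pericyte proteoglycan Cspg4 (870.1, 1029 and 494). Of the 7 called fibroblast genes 2 were highest and 4 lowest on the arrays numbered 3. The summed signal of the fibroblast list ran from 63627 to 107547 on the arrays numbered 3, 85287 to 137274 on those numbered 1 and 68004 to 92268 on those numbered 2. That of the pericyte and smooth muscle list ran from 6319 to 22908 on the arrays numbered 3, 4428 to 12841 on those numbered 1 and 5104 to 9425 on those numbered 2. The endothelial sum was 1363 to 2101 on the arrays numbered 3, 1943 to 2689 on those numbered 1 and 1899.9 to 2332 on those numbered 2. The part of these cell types in the replicate differences of Igfbp5, Igfbp2 and Igf2 was not tested.

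Over time, the fibroblast sum ran from 75076 to 95580.3 at 1 h and from 92268 to 137274 at 25 h, with 5 of 12 tested genes higher and 0 lower (7 and 1 with the replicate block). Against these counts and those of the next lists, 36.7% of all tested genes were called in either direction (51.2% with the block). The pericyte and smooth muscle sum ran from 9425 to 22908 at 1 h and from 4428 to 6319 at 25 h, with 2 of 5 lower, and the sum for parietal endoderm from 21894 to 27498 and then from 26484 to 30038, with 0 of 8 called by limma (4 with the block). The leukocyte sum ran from 2406 to 5568 and then from 7171 to 11088, with Cd14 higher and Csf1r lower, while the defining marker Ptprc averaged 23.4 at 1 h and 29.8 at 25 h. No list had a marker at 0, but the lowest signal of the whole data set was 0.1, so none could be. Of 22 measured endothelial markers 3 passed the filter (Cdh5, Flt1 and Cd34), and Pecam1, Tie1 and Vwf averaged 18.7, 1.83 and 1.87 at 1 h, so that most defining markers of the labelled cell type were below the filter. The part of these changes in the rise of Igfbp4, Igfbp6 and Igfbp7 was not tested.

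Igfbp2 and Igfbp5, the members most separated by replicate number, are neighbouring protein-coding genes on chromosome 1 in RefSeq. All 10 members had at least 1 promoter window in RefSeq's GRCm38.p6 table, 14 in all, read here as the 250 bases before the start. The windows of these neighbours are shown with that of Igfbp4, the member with the most probe sets and the smallest p over time. Igfbp2 has another window, not printed. Capitals mark matches on either strand to any of 6 motifs: the TATA box TATAAA, the GC box GGGCGG, the CCAAT box CCAAT, the E-box CANNTG, the AP-1 site TGANTCA and the forkhead site GTAAACA.
Igfbp5, chr1:72874866-72875115, minus strand: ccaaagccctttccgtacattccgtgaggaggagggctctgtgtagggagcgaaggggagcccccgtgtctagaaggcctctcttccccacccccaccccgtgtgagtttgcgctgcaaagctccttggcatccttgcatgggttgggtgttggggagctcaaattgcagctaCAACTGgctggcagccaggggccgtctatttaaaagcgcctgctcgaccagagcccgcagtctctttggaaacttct
Igfbp2, first window, chr1:72824230-72824479, plus strand: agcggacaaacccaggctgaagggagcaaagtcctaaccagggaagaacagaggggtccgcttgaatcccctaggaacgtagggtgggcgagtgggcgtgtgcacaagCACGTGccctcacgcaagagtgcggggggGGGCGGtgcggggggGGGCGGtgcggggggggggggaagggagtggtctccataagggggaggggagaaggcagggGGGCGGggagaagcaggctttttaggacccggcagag
Igfbp4, chr11:99040994-99041243, plus strand: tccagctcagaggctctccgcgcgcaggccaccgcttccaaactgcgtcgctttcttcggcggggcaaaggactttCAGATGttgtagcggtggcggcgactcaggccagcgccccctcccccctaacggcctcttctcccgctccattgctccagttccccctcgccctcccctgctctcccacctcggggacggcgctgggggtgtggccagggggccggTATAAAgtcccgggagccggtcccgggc
The Igfbp5 window held 1 E-box and no other match, at 58.8% G and C. That of Igfbp2 held 3 GC boxes and 1 E-box, at 67.2%, and that of Igfbp4 1 TATA box, 28 bases before the start, and 1 E-box, at 69.2%. Over the 32851 windows of the table the median was 52.4% G and C. The share with a match was 12.4% for the TATA box, 32.7% for the GC box, 33.8% for the CCAAT box, 66.2% for the E-box, 6.7% for the AP-1 site and 3.2% for the forkhead site. A match describes the letters only, and the windows of the neighbours share no matched motif other than the E-box, which most windows hold.

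The genes whose log2 signals followed a changed member most closely over the 12 arrays were, for Igf1r, Tdrd7 (Pearson r 0.952), Nek6 (0.918) and Yap1 (0.913). For Igfbp4 they were Trim11 (0.971), Npdc1 (0.960) and Angptl4 (0.955), and for Igfbp6 Alas1 (0.973), Eci1 (0.968) and Chst2 (0.966). For Igfbp7 they were Ifitm3 (0.955), Gas1 (0.954) and Zfp281 (0.950). The arrays behind these values share times and replicate numbers. Among the members themselves, the residuals left after removing each time's mean followed each other closely for Igf2 with Igfbp5 (r 0.938), Igf2 with Igfbp6 (0.928) and Igfbp2 with Igfbp5 (0.915), and ran opposite for Igf1 with Igfbp2 (-0.844), over the same 12 arrays. Such residuals still hold the replicate number differences given above, so these values are not separate evidence that the members vary together. The pairs named are the most extreme of all member pairs.

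Genes downstream of the receptor were described from a list of 38 IGF and insulin receptor signalling genes, 29 of them measured and 26 tested. From 1 to 25 h 4 rose and 0 fell, against 21.6% of all tested genes higher and 15.1% lower, and the list's median change was 0.17 on the log2 scale against 0.13 for all tested genes. With the replicate block the counts were 9 higher and 5 lower, against 51.2% of all tested genes called in either direction. Shc1, the adaptor that links the receptor to Ras, rose 2.56-fold, from 1631 ± 181 to 4181 ± 594 (mean ± SD, n = 3, limma adjusted p = 5.5e-05). Grb14, an adaptor that restrains the insulin receptor, averaged 109 ± 17.5 at 1 h and 402 ± 99.0 at 25 h, a 3.64-fold difference (adjusted p = 0.000827) that the filter favoured, since only its 15 and 25 h arrays reached it. Sh2b1 (1.52-fold, adjusted p = 0.0274) and Pik3ca (1.40-fold, adjusted p = 0.0289, named after its value was seen) were the others. Irs1, the receptor's main docking protein, averaged 1390.2 ± 450 at 1 h and 564 ± 78.8 at 5 h, a 2.39-fold difference downward that passed with the replicate block only (adjusted p = 0.0648, and 0.00171 with the block). The insulin receptor Insr averaged 143 over the 12 arrays and was not tested.

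Of 20 FOXO target genes, which AKT signalling keeps down by holding FOXO factors out of the nucleus, 18 were measured and 16 tested. Of these, 12 rose from 1 to 25 h and 0 fell, against 21.6% of all tested genes higher and 15.1% lower. With the replicate block 13 were higher and 2 lower, against 51.2% of all tested genes called in either direction. The list's median change was 1.29 on the log2 scale, against 0.13 for all tested genes. This list was chosen with earlier results of these data known, so its direction is not independent evidence. Txnip, an inhibitor of thioredoxin, rose 5.56-fold, from 264 ± 49.9 to 1461 ± 223 (limma adjusted p = 1.07e-05), and was already 2.78-fold higher at 5 h (adjusted p = 0.00549). Ccng2, a cyclin of resting cells, rose 3.49-fold (adjusted p = 0.000694), and the stress-response gene Sesn1 2.15-fold (adjusted p = 0.00141). The muscle ubiquitin ligase Fbxo32 averaged 26.8 ± 6.86 at 1 h, under the filter, and 525 ± 245 at 25 h. It entered the tests through its later arrays, so its 18.7-fold difference (adjusted p = 3.45e-05) is set against a level under the filter and was favoured by it. Pdk4, another of the 12, averaged 181 at 1 h and 121 at 5 h, under the filter, and 619 at 25 h. The filter could thus favour its rise too, and with it the count. The 4 that were not called were Cdkn1b (1.77-fold upward, adjusted p = 0.138, and 0.00246 with the block), Cited2 (1.34-fold upward, 0.247), Eif4ebp1 (1.49-fold downward, 0.104, and 0.0183 with the block) and Irs2 (1.70-fold downward, 0.13, and 0.0153 with the block). The last 2 of these are also members of the signalling list.

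**Figure D5:**
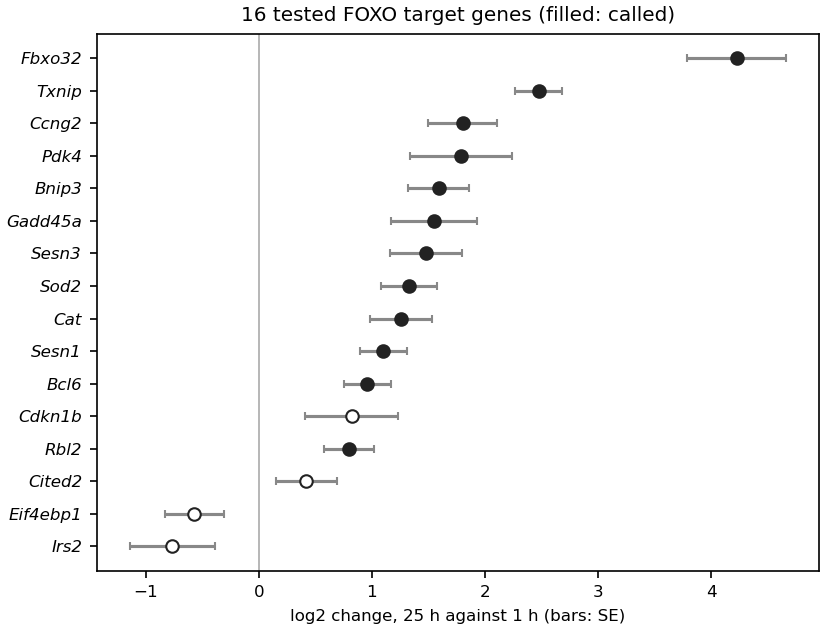
The log2 change from 1 to 25 h is plotted for the 16 tested FOXO target genes, with bars of 1 SE and filled points for an adjusted p under 0.05. The 12 filled points all lie right of 0, with Fbxo32, whose 1 h signals were under the filter, farthest out, and Eif4ebp1 and Irs2 lie left of it.

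Of 14 genes of the IGF ternary complex and of proteases that cut binding proteins, with their inhibitors, 13 were measured and 9 tested. From 1 to 25 h 1 rose and 2 fell, against 36.7% of all tested genes called in either direction. With the replicate block 2 were higher and 2 lower, against 51.2%. The median change was 0.18. Ctsd, a lysosomal protease, rose 2.36-fold (limma adjusted p = 0.00553). Plau, the urokinase gene, fell from 542 ± 253 to 121 ± 65.4, 4.66-fold (adjusted p = 0.00783), and Timp3, an inhibitor of metalloproteinases, from 3139 ± 2594 to 508 ± 389, 6.16-fold (adjusted p = 0.0122). The 15 and 25 h means of Plau lay under the filter and its 1 and 5 h means above it, so the filter favoured its difference. Adamts1, a secreted metalloproteinase, fell 2.60-fold from 1 to 5 h (adjusted p = 0.031) and differed by 1.11-fold between 1 and 25 h. The Igfbp4 protease gene Pappa averaged 80.0 over the 12 arrays and was not tested. Its geometric means on the arrays numbered 1, 2 and 3 were 42.0, 18.1 and 137, all under the filter.

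Of 20 imprinted growth genes 19 were measured and 8 tested, and 3 rose from 1 to 25 h with none lower, against 36.7% of all tested genes called in either direction. With the replicate block 3 were higher and 1 lower, against 51.2% of all tested genes called. The lower one was the zinc finger gene Plagl1 (1.95-fold downward, adjusted p = 0.376, and 0.0104 with the block). Dcn rose 12.6-fold, from 849 ± 737 to 9019 ± 4297 (limma adjusted p = 0.000909), and is also on the fibroblast list. Sgce, a sarcoglycan, rose 1.86-fold (adjusted p = 0.00467) and Impact, a regulator of translation, 1.69-fold (adjusted p = 0.00778). All 10 genes of the growth hormone axis were measured and 8 tested. From 1 to 25 h 2 were higher and 1 lower, against 36.7% of all tested genes called in either direction. With the block 5 were higher and 1 lower, against 51.2%. Socs3, a brake on cytokine receptors, rose 7.22-fold (adjusted p = 6.51e-05), and the growth hormone receptor Ghr rose 2.01-fold by 5 h (adjusted p = 0.048) and 2.89-fold by 25 h (adjusted p = 0.000332). The one lower call was Socs1, which averaged 213 at 1 h and 127 at 25 h (adjusted p = 0.0457). Its later means lay under the filter and its 1 h mean above it, so the filter favoured that difference. Of 12 IGF relatives and Igf2 mRNA binding proteins 8 were measured, and Crim1, a transmembrane protein with an IGF binding protein-like domain, alone passed the filter (2.29-fold downward from 1 to 25 h, adjusted p = 0.0952, and 0.000842 with the replicate block).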

How the data were processed

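The authors deposited MAS5 signal intensities on a linear scale, per the submitters' processing notes, for 22690 probe sets on 12 arrays. The trimmed mean of each array, leaving out the outer 2% at each end, was 500.1 to 500.2. Array medians ran from 154 to 209, so all levels are relative to the array's own total. Symbols came from the platform annotation, with 20379 probe sets naming 1 gene. Signals were put on a log2 scale with no offset. A probe set was kept at a signal of 183 (the 50th percentile) on 3 arrays or more, and each gene was represented by its probe set of highest average log2 signal. limma 3.58.1 in R 4.3.3 fitted 1 mean per time with an intensity trend (8 residual degrees of freedom, 6 with the replicate block), with Benjamini-Hochberg adjustment across the tested genes and a threshold of 0.05. Fold changes are ratios of geometric means. The script was tested, without the block, on simulated data with independent noise on each array and no replicate effect. That simulation did not check error rates under the replicate differences seen here.

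The labels number the biological replicates but do not say what a number shares. P-values of the main fit set a change against a spread that includes the replicate number differences. Those with the replicate block set it against a spread with these differences removed. Residuals of arrays with the same number correlated at 0.328 to 0.758 in 18 of 18 pairs, against at most 0.198 for arrays of different numbers, and 12 of 12 arrays were closest to one of their own number. The numbers were therefore taken to pair the samples in the replicate folds and in the replicate block, on the data's evidence. The main fit did not hold the number, so its p-values leave this pairing out. The members and lists were chosen with earlier results of these data known. The named genes are all members, up to 4 genes per list with the smallest F test p among those called, and the 3 genes closest to each called member. Cell type markers, list genes that were not called or not tested, and Pik3ca, Pdk4, Socs1 and Plagl1 were named outside that rule, after their values were seen. H19 was not analysed here. Promoter sequences are RefSeq's, and the gene neighbours come from RefSeq's gene table.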

Additional observations from a re-analysis of the deposited data

How the results depend on the processing

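The 16 gene results followed here are those called in the main fit or with the replicate block. None of them changed sign in the 26 or 27 alternatives run for each. Since they were chosen by their calls and the alternatives reuse the same arrays, a stable sign was favoured in advance. Leaving out numbers 2 or 3 was chosen after seeing the data. With the replicate block, the members called numbered 4 from 1 to 15 h, 6 from 5 to 15 h, 1 from 15 to 25 h and 1 from 1 to 5 h, and the counts over all times and from 1 to 25 h stayed within 1.5 times. Leaving out single arrays gave 1 to 2 from 1 to 15 h and 0 to 2 from 5 to 15 h. Without the arrays numbered 1 or without those numbered 2, the F test called 1. Without number 3 it called 4, but these were Igf1, Igfbp5, Igfbp6 and Igfbp7, with Igfbp4 (adjusted p = 0.0861) and Igf1r (0.128) lost. From 1 to 15 h the count was 0 without number 2 and 2 without number 3, and with the block 3, 3 and 4 without numbers 1, 2 and 3. From 5 to 15 h it was 0, 0 and 2 without numbers 1, 2 and 3, and with the block 3, 3 and 4. It was 0 with no filter, with median centring or with no intensity trend, and 3 with every probe set tested. From 1 to 5 h it was 1 without number 1 and with the block. The cause of these differences was not tested, though fewer arrays leave fewer degrees of freedom. Igf1, Igf2 and Igfbp3 are limited by signals near or under the filter, as is Igfbp5 at 1 and 5 h in replicates 1 and 2. The gel itself can carry IGF proteins, which arrays do not measure.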
